A study of Mus musculus with 20 samples.

Results

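The heat shock chaperone genes described here are 35 genes for cytosolic, nuclear and mitochondrial protein-folding factors, taken by symbol from a deposited table of counts for 24419 genes. They comprise 2 HSP90 genes, 7 HSP70 genes, 3 HSP110 genes, 6 HSP40 genes, 2 small heat shock protein genes, 2 genes of the mitochondrial chaperonin, 5 subunits of the cytosolic chaperonin CCT, 6 co-chaperones and 2 heat shock transcription factors. Each of the 35 had a row in the table. Of these, 34 passed the expression filter, which kept 14411 genes, and Hspb1 did not.

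RNA was sequenced from dissociated hippocampal cultures of C57BL6 mouse embryos taken at embryonic day 18, with tissue pooled from 4 embryos. The cultures were grown for 10 days, with 4 µM cytosine arabinoside, a drug that acts on dividing cells, from day 3 to day 6. The 4 groups, each of 5 libraries, received a 2 min pulse at room temperature and were lysed after 90 min back at 37 °C in their earlier medium. The TPA group received 50 µM glutamate with 10 µM of the zinc chelator tris(2-pyridylmethyl)amine (TPA), after 1 min in the chelator alone. The zinc group received 50 µM glutamate with 10 µM ZnCl2. The glutamate-only group received 50 µM glutamate. The control group received the imaging medium without additions and went through the same washes and temperature changes, and zinc and TPA were each given only together with glutamate in the groups analysed here. The comparisons ask how a short glutamate stimulus, and the zinc available during it, alter these transcripts.

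Heat shock proteins hold unfolded chains, refold them or pass them on for degradation. HSP70 binds short hydrophobic stretches, HSP40 proteins deliver clients and speed its ATP cycle, HSP110 proteins exchange its nucleotide, and HSP90 takes over clients such as kinases and steroid receptors at a later stage of folding. In most cells heat, heavy metals and misfolded protein release the transcription factor HSF1, which binds heat shock elements in the promoters of Hspa1a, Hspa1b, Dnajb1, Hsph1, Hspb1, Bag3 and others. In neurons the constitutive HSP70 of the cytosol, HSC70 (Hspa8), also strips clathrin from vesicles at synapses.

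Promoter sequences are shown first, because HSF1 acts through them. They come from RefSeq, build GRCm38.p6 (mm10), and span 250 bases before to 50 bases after an annotated start, on the gene's strand. Windows were found for 28 of the 35 genes, and Hsp90aa1, Hsp90ab1, Hspa8, Hspa9, Cct4, St13 and Hsf1 had none in the table. A heat shock element is a run of alternating inverted short units, and it was searched as 3 units in a row, GAANNTTCNNGAA or its reverse complement TTCNNGAANNTTC, on both strands. At least 1 such match was present in 5 of the 28 genes (17.9%), which are Hspd1, Hspe1, Hsph1, Dnajb6 and Chordc1, against 0.662% of all 27025 genes with a window. A looser pattern of 2 units, GAANNTTC or TTCNNGAA, each its own reverse complement and contained in every 3-unit match, was present in 15 of the 28 genes and in 17.0% of all genes. A match is a description of letters and not a mapped site.

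The windows below are those of 4 genes with a 3-unit match, of Hspa1a, the classical heat-inducible HSP70 gene, and of Hspa14, the gene with the smallest p-value in the comparisons below. Capitals mark 3-unit matches, and overlapping matches run together. Hspe1 (chr1:55087898-55088197, plus strand) shares its matches with Hspd1, which starts on the opposite strand, and they lie between 89 and 72 bases before the Hspe1 start. Chordc1 (chr9:18292017-18292316, plus strand) has 3 overlapping matches across its start. Hsph1 (chr5:149636266-149636565, minus strand) has its match 15 to 27 bases after the start, and Dnajb6 (chr5:29735648-29735947, plus strand) has its match 46 to 34 bases before it. Hspa1a (chr17:34972107-34972406, minus strand) held 1 match of the looser pattern only, and Hspa14 (chr2:3512765-3513064, minus strand) held neither.
Hspe1: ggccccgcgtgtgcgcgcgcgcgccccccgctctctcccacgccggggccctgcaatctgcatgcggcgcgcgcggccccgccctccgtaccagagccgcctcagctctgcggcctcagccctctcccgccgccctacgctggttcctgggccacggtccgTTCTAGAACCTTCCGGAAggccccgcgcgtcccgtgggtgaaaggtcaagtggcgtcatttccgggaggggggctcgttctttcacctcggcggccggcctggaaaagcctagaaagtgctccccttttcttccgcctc
Chordc1: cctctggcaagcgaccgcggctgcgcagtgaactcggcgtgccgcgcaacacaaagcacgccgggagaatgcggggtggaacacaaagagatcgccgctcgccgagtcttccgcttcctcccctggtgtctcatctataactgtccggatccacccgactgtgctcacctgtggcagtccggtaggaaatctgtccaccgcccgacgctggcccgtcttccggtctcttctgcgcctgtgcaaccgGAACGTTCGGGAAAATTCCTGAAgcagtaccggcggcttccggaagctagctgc
Hsph1: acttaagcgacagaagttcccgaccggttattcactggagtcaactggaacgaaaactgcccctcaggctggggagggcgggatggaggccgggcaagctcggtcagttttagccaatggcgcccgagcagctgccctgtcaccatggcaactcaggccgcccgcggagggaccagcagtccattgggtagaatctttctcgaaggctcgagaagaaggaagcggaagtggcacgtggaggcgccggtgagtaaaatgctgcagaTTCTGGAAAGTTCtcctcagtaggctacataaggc
Dnajb6: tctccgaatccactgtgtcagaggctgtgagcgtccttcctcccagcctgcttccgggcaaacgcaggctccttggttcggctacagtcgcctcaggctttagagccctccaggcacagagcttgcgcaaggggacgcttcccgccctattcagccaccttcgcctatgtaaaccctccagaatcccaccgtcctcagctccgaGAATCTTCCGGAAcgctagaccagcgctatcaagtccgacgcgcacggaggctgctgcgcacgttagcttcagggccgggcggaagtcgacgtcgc
Hspa1a: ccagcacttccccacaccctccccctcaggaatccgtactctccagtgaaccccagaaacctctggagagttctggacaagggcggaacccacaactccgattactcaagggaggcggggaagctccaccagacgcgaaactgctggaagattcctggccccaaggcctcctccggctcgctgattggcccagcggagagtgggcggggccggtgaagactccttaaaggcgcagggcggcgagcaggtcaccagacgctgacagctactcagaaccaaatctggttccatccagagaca
Hspa14: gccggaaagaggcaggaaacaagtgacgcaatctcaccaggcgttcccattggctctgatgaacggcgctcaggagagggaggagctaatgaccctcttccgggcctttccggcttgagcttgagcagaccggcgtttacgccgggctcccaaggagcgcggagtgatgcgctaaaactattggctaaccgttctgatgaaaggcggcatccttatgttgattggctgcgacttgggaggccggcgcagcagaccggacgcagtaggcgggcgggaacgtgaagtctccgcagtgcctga

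Library totals were 28692470 to 38767979 counts in the TPA group, 33445137 to 38435627 in the zinc group, 35559330 to 40934630 in the glutamate-only group and 36106575 to 39765787 in the control group. Each condition had 5 biological replicates, per the labels, which do not say whether they came from separate pools of embryos, and p-values measure the spread between these libraries. Glutamate-only replicates 4 and 5 and zinc replicate 5 lay farthest from the rest of their groups over all genes, and fits without them are given where they alter a call. The 6 neuronal markers (Map2, Rbfox3, Snap25, Syt1, Tubb3 and Slc17a7) summed to 4760.1 to 5187 CPM (counts scaled by library size) in the TPA libraries, 4564 to 5498 in the zinc libraries, 4457 to 5068 in the glutamate-only libraries and 4741 to 5097 in the control libraries. The 6 astrocyte markers summed to 185 to 222 CPM in the TPA libraries, 167 to 227 in the zinc libraries, 159 to 232 in the glutamate-only libraries and 172 to 234 in the control libraries. The 4 fibroblast markers summed to 3.69 to 4.87, 4.12 to 5.38, 3.56 to 5.66 and 2.58 to 3.99 CPM in TPA, zinc, glutamate-only and control libraries, so that each zinc library lay above each control library, and all 3 haemoglobin genes had 0 counts in every library. None of these marker genes passed the adjusted threshold in any comparison, and the part of cell composition in the chaperone values was not tested. In bulk RNA, fewer cells of a type and less RNA per cell cannot be told apart.

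The chaperones differed widely in level, measured as TPM (transcripts scaled to the same sum in each library), which are corrected for gene length. HSP90 beta (Hsp90ab1), the constitutive cytosolic HSP90, had the highest level at 3056 TPM as the mean of 20 libraries, rank 8 of all genes. Hspa8 followed at 2144 TPM, rank 21, and the inducible HSP90 alpha (Hsp90aa1) at 1504 TPM, rank 41. The ranges of these 3 genes over the 20 libraries, 2924 to 3257, 1995 to 2488 and 1391 to 1623 TPM, did not overlap. The next 17 genes, from Cct2 at 449.9 TPM to Hsph1 at 155 TPM, included all 5 CCT subunits and Hspd1 at 366 TPM. Within them the range of Cct2 lay above that of Hspd1, and all other neighbours overlapped. Below Hsph1, Dnajb5 at 112 TPM and Dnajb6 at 84.5 TPM each stood apart from their neighbours, and 5 genes from Hspa4l at 64.3 TPM to Dnajb4 at 47.8 TPM overlapped in sequence, with Hsf2 and Dnajb1 among them. Hspa2 followed at 33.2 TPM and apart from its neighbours, and Hspa14 at 23.9 TPM overlapped with Hsf1 at 21.8 TPM. The sum of all 35 genes was 11676 ± 391 TPM in the TPA group, 12113 ± 267 in the zinc group, 11714 ± 285 in the glutamate-only group and 11810 ± 94.1 in the control group (SD, n = 5 each).

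Several genes used as reporters of a heat shock response were at the bottom of the order. Hspa1a, the stress-inducible HSP70, had 4.35 TPM, and its twin Hspa1b had 3.69 TPM. Both are near copies of each other, so reads matching both may be shared or left out. Their true levels may therefore be higher. Hspb8, a small heat shock protein, had 2.20 TPM, and its partner Bag3, a co-chaperone that directs clients to autophagy, had 1.32 TPM. Hspb1, which encodes HSP27 (HSP25 in the mouse), had 0.207 TPM and 45 counts in all 20 libraries together. Dnajb1, the major heat-inducible HSP40, was well detected at 50.9 TPM.

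**Figure D1:**
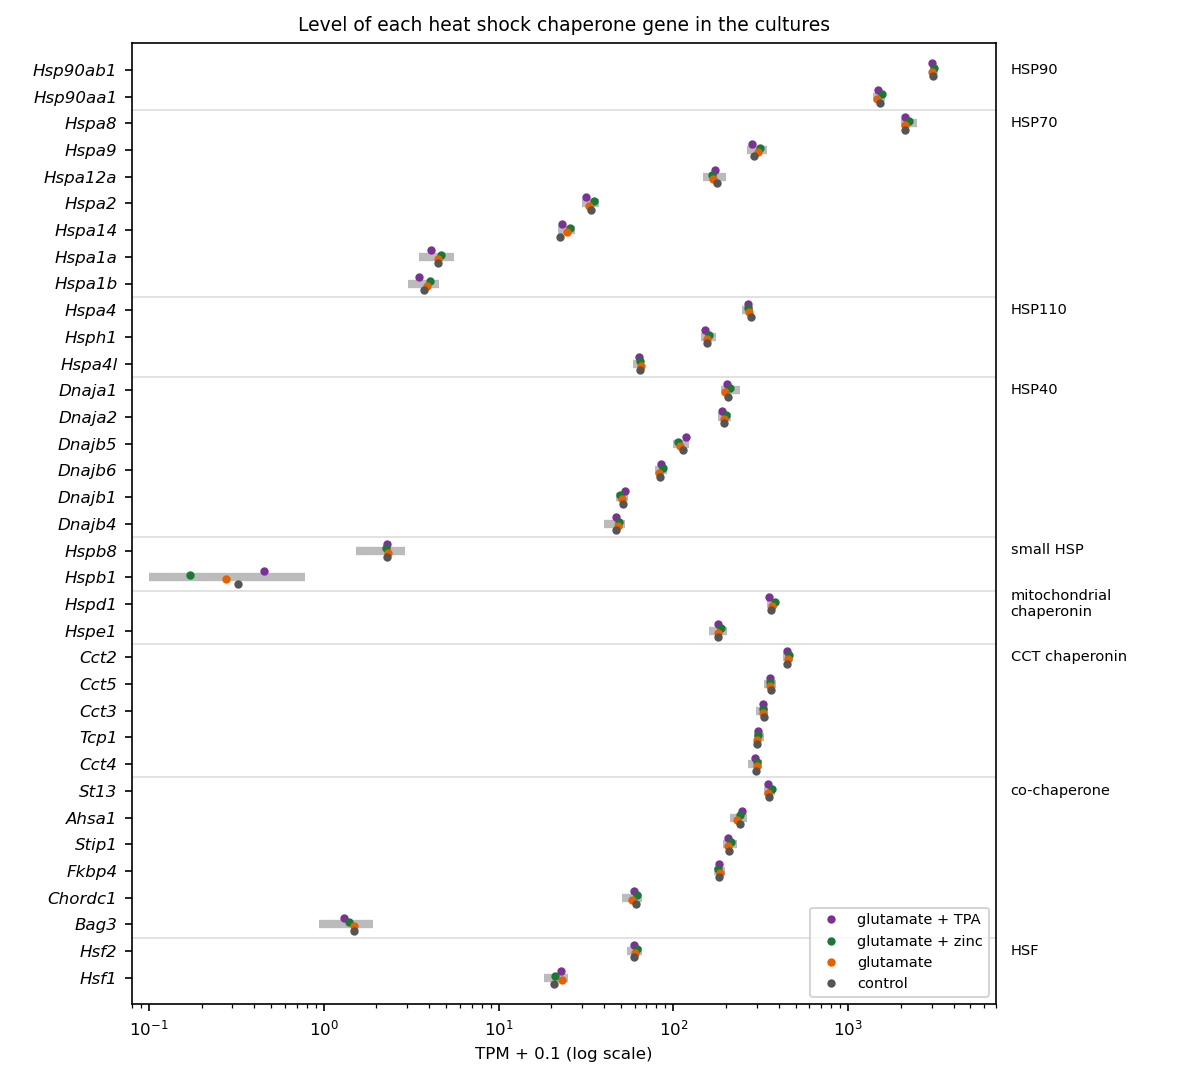
Level of each of the 35 genes in TPM plus 0.1, on a log axis, with genes grouped by class down the page. Points are group means of 5 libraries and grey bars run from the lowest to the highest of 20 libraries. Hsp90ab1, Hspa8 and Hsp90aa1 lie right of all others at 1391 TPM or more, while Hspa1a, Hspa1b, Hspb8, Bag3 and Hspb1 lie at 5.44 TPM or less.

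In the edgeR quasi-likelihood test adjusted over 14411 genes, none of the 34 chaperones passed 0.05 in any of the 6 pairwise comparisons or in the test of any difference among the 4 groups. The share of all genes that passed was 0.0694% for TPA against control, 0.0416% for zinc against control, 0.0208% for glutamate-only against control, 0% for zinc against glutamate-only, 0% for TPA against glutamate-only, 0.513% for TPA against zinc and 0.167% for any difference. A count of 0 of 34 is near these background shares. limma-voom likewise called none of the chaperones. DESeq2 called Hspa14 in zinc against control, Hspa14 and Hspd1 in TPA against zinc, Hspa14 for any difference, and none in the other comparisons. Of all genes with a DESeq2 adjusted p, it called 0.444%, 4.49% and 1.71% in these 3, so the 2 of 34 in TPA against zinc are near the background share.

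All 6 activity-induced transcripts examined (Fos, Fosb, Egr1, Npas4, Arc and Klf4) had positive log2 fold changes against control in the 3 stimulated groups. Past the edgeR adjusted threshold were 5 with TPA, 1 with zinc and 2 with glutamate only, where 0.0694%, 0.0416% and 0.0208% of all genes passed. Arc passed in none of these comparisons. Fosb, an AP-1 subunit induced by activity, averaged 17.9 ± 0.561 CPM with TPA, 14.3 ± 2.78 with zinc, 18.7 ± 3.07 with glutamate only and 8.05 ± 0.693 in control (SD, n = 5 each). It rose in all 3 stimulated groups, by 1.15 (SE 0.12), 0.83 (SE 0.12) and 1.22 (SE 0.12) in log2 fold change, with edgeR adjusted p = 2.86e-05, 0.00304 and 1.31e-05. The immediate early factor Klf4 rose with TPA by 1.68 (SE 0.18) and with glutamate only by 1.56 (SE 0.18) on the log2 scale, with edgeR adjusted p = 2.86e-05 and 1.02e-04. With zinc its log2 fold change was 0.77 (SE 0.20), with an edgeR adjusted p of 0.187.

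Beside this, the intervals of the chaperones against control were narrow. The 95% confidence interval of the fold change lay wholly within 1.25-fold either way for 30 of 34 chaperones with TPA, 31 with zinc and 32 with glutamate only, against 72.4%, 69.2% and 71.1% of all genes tested. All genes were not matched to the chaperones for level. Bag3 and Hspb8, both with few counts, were outside in each of these comparisons, joined by Hspa1b with zinc and by Hspa1a and Hspa1b with TPA. For Hspa1a the fold-change interval was 0.777 to 1.06 with TPA, 0.906 to 1.23 with zinc and 0.859 to 1.16 with glutamate only, and for Dnajb1 it was 0.966 to 1.08, 0.912 to 1.02 and 0.922 to 1.03. Over all 34 genes and these 3 comparisons the lowest bound was 0.646-fold, for Bag3 with TPA, and the highest was 1.34-fold, for Bag3 with glutamate only. The median log2 fold change of the 34 genes was -0.019 with TPA (10 positive), 0.036 with zinc (25 positive) and -0.020 with glutamate only (13 positive), while the median of all genes was -0.00095, 0.0016 and -0.0020. The median deviation of the 34 genes had an SD of 0.033 between single libraries of a group. This is a spread of libraries, and no error of the medians between groups was computed. With 1 library left out the median ran from -0.034 (without TPA replicate 1) to -0.0034 (without TPA replicate 2) for TPA, from 0.022 (without zinc replicate 3) to 0.051 (without control replicate 5) for zinc and from -0.042 (without glutamate-only replicate 4) to -0.0044 (without glutamate-only replicate 3) for glutamate only.

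**Figure D2:**
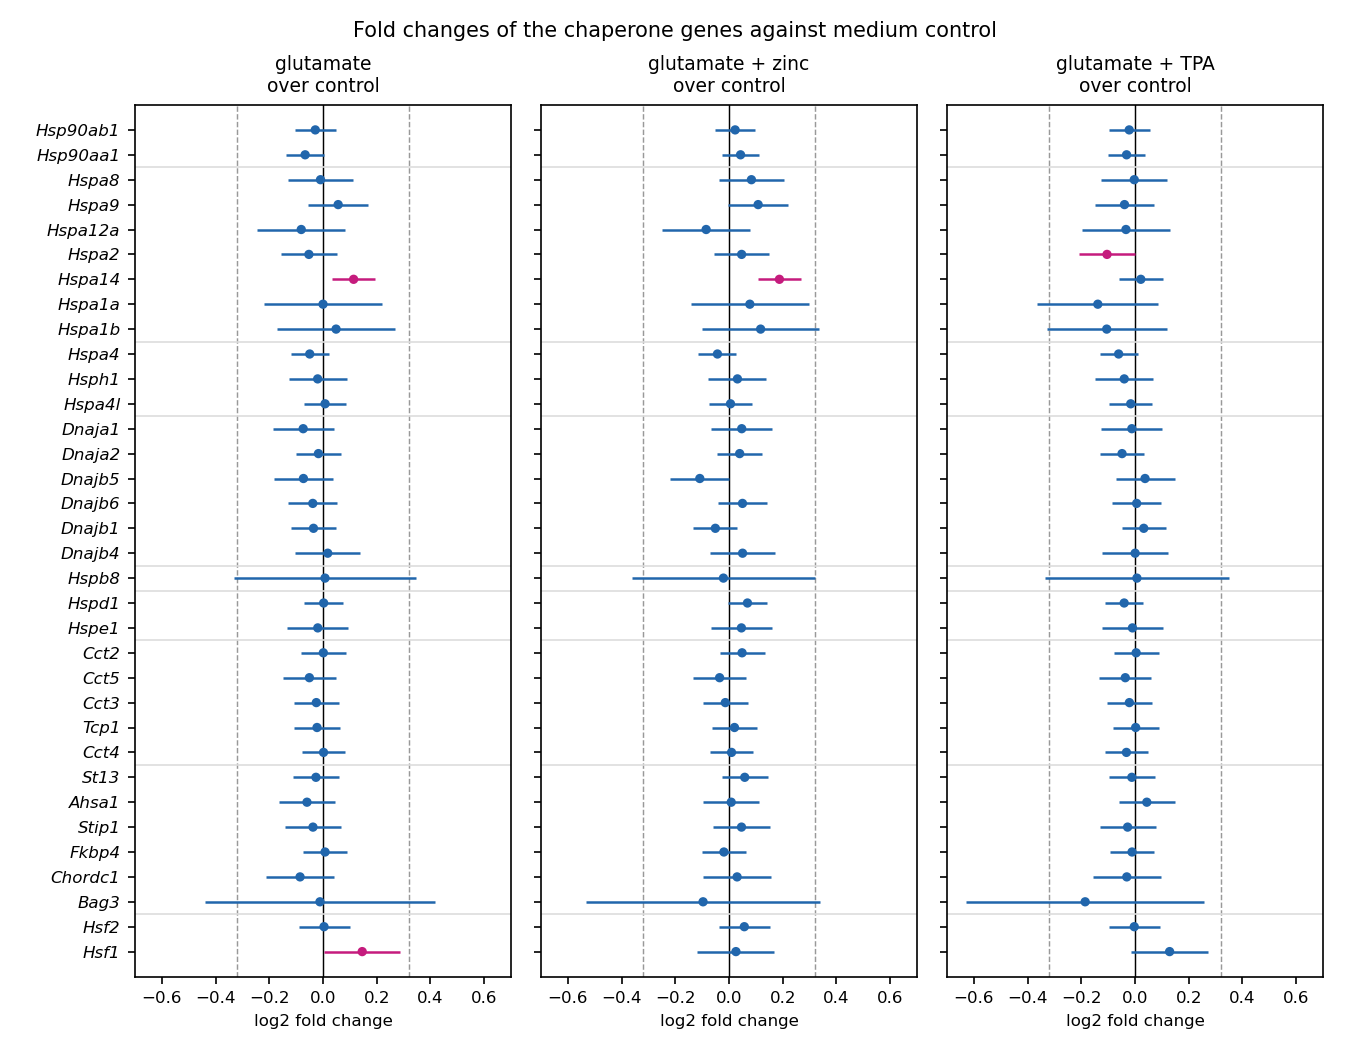
Log2 fold change of each tested chaperone gene against medium control in the 3 stimulated groups (5 libraries against 5), with 95% confidence intervals. Dashed lines mark 1.25-fold, and magenta marks an unadjusted p under 0.05. Most intervals lie between the dashed lines, and Hspa14 lies right of 0 with zinc and with glutamate only.

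At an unadjusted p under 0.05, 1 of 34 chaperones stood out with TPA (Hspa2), 1 with zinc (Hspa14) and 2 with glutamate only (Hsf1 and Hspa14), against 3.09%, 11.1% and 4.98% of all genes. The 5 libraries of each stimulated group lay wholly apart from the 5 control libraries for Hspa14 with zinc and with glutamate only and for no chaperone with TPA. The share of all genes with such a separation was 1.33% with TPA, 2.66% with zinc and 0.985% with glutamate only.

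Hspa14 encodes an atypical HSP70 that forms part of the ribosome-associated complex with the HSP40 Dnajc2, as known in human cells. It had 46.3, 46.5, 43.7, 42.3 and 42.4 CPM in the TPA libraries, 49.4, 52.1, 50.9, 49.6 and 46.3 in the zinc libraries, 47.6, 48.7, 47.0, 46.8 and 45.8 in the glutamate-only libraries and 41.5, 43.4, 44.8, 43.9 and 44.4 in the control libraries. Each zinc library and each glutamate-only library lay above each control library, and the TPA libraries overlapped the control ones. The group means were 44.3 ± 2.07, 49.6 ± 2.17, 47.2 ± 1.06 and 43.6 ± 1.26 CPM with TPA, with zinc, with glutamate only and in control (SD, n = 5 each).

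The log2 fold change of Hspa14 against control was 0.022 (SE 0.039) with TPA, 0.19 (SE 0.039) with zinc and 0.11 (SE 0.039) with glutamate only, and edgeR's adjusted p was 1, 0.0923 and 0.889. Against zinc, the TPA group differed by -0.17 (SE 0.039) with an adjusted p of 0.0568, and for any difference the adjusted p was 0.0789. The values for zinc against control, TPA against zinc and any difference lie above the threshold of 0.05. Some other settings crossed it, while limma-voom, the scaling of DESeq2, no low-count filter and each pair of groups fitted alone did not. DESeq2 gave an adjusted p of 0.00281 for zinc against control and 0.00512 for TPA against zinc, where it called 0.444% and 4.49% of the genes it gave an adjusted p. The authors' deposited tables list Hspa14 at 0.17 (SE 0.04, adjusted p = 0.00308) for zinc over control and at 0.15 (SE 0.04, adjusted p = 0.00586) for zinc over TPA, where 0.561% and 3.78% of their genes are under 0.05. In edgeR Hspa14 also passed in both comparisons without zinc replicate 4 or without zinc replicate 5, and in TPA against zinc without TPA replicate 1 or with a minimum mean of 1 CPM, as it did in both without the 3 farthest libraries. Of the 10 fits with 1 library left out, it passed in 2 for zinc against control (adjusted p up to 0.304). For TPA against zinc it passed in 3 of 10 (up to 0.187). In TPA against zinc, 899, 230 and 127 genes were called without zinc replicate 4, zinc replicate 5 or TPA replicate 1. Without the 3 farthest libraries 1149 were called there, against 74 with all libraries. For zinc against control, 100 were called without zinc replicate 4 and 231 without the 3 farthest, against 6.

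What the deposited Hspa14 row counts is uncertain. Per the file headers it covers 5815 exonic bases on the minus strand of chr2:3488854-3512814 in mm10. In GENCODE M21 that strand holds 2 genes with a common start region, Hspa14 and Gm45902. The row covers 4345 of the 4347 exonic bases of Gm45902, which has no row of its own, and 1791 of the 4057 exonic bases of Hspa14, with 321 bases common to both genes. The count therefore cannot be assigned to the HSP70 transcript alone. Cdnf, a neurotrophic factor gene, starts at chr2:3513030 on the opposite strand, within the promoter window printed above.

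**Figure D3:**
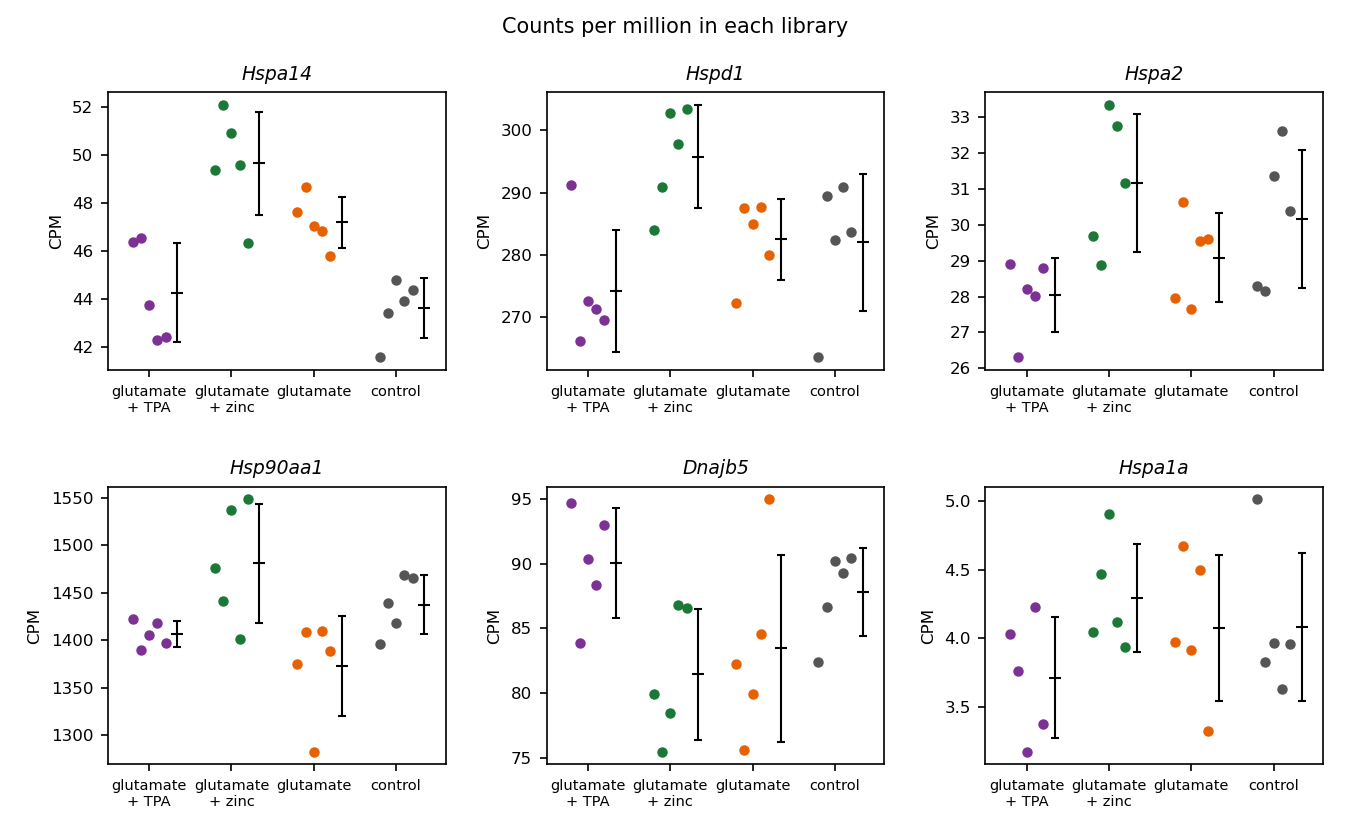
CPM of 6 chaperone genes in each library, with points for libraries in replicate order and bars for mean ± SD (n = 5), and y axes that do not start at 0. The 5 zinc and the 5 glutamate-only values of Hspa14 lie above the 5 control values, and the groups of the other 5 genes overlap.

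The inducible pair Hspa1a (chr17:34969359-34972156 in mm10, minus strand) and Hspa1b (chr17:34956429-34959238 in mm10, minus strand) sit side by side and are near copies. Their longest open reading frames matched at 99.4% of 1929 aligned positions and their promoter windows at 98.7% of 300. Reads may therefore be shared between them or left out of both, and each count is uncertain. Hspa1a had 4.03, 3.76, 3.17, 4.23 and 3.37 CPM in the TPA libraries, 4.04, 4.47, 4.90, 4.12 and 3.94 in the zinc libraries, 3.97, 4.67, 3.91, 4.50 and 3.32 in the glutamate-only libraries and 5.01, 3.83, 3.97, 3.63 and 3.96 in the control libraries. Hspa1b had 2.77, 3.09, 3.17, 3.95 and 2.90 CPM in the TPA libraries, 3.96, 3.40, 4.16, 3.31 and 3.60 in the zinc libraries, 3.51, 3.97, 3.38, 3.85 and 2.88 in the glutamate-only libraries and 3.41, 3.83, 3.51, 3.14 and 3.11 in the control libraries. All 4 groups overlapped for both genes. The log2 fold change of Hspa1a was -0.14 (SE 0.11) for TPA against control, 0.078 (SE 0.11) for zinc against control and 0.00015 (SE 0.11) for glutamate-only against control. The largest differences of the pair were for TPA against zinc, -0.22 (SE 0.11) and -0.22 (SE 0.11), with edgeR adjusted p = 0.332 and 0.312. With the counts of both genes summed, no chaperone was called either, but a sum does not hold reads left out of both counts.

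Hspa8 encodes HSC70, the constitutive HSP70 of the cytosol. It had 1725, 1382, 1438, 1445 and 1399.9 CPM in the TPA libraries, 1492, 1453, 1543, 1759 and 1597 in the zinc libraries, 1405, 1469, 1358, 1648 and 1477 in the glutamate-only libraries and 1435, 1506, 1513, 1476 and 1473 in the control libraries. TPA replicate 1 was high in its group, and the groups overlapped. The fold change of Hspa8 lay in a 95% interval of 0.917 to 1.09 for TPA, 0.974 to 1.15 for zinc and 0.913 to 1.08 for glutamate-only, each against control.

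Hspa2, an HSP70 best known from spermatogenesis and present in neurons too (chr12:76404176-76406936 in mm10, plus strand), had 28.9, 26.3, 28.2, 28.0 and 28.8 CPM in the TPA libraries, 29.7, 28.9, 33.3, 32.8 and 31.2 in the zinc libraries, 28.0, 30.7, 27.7, 29.5 and 29.6 in the glutamate-only libraries and 28.3, 28.2, 31.4, 32.6 and 30.4 in the control libraries. The TPA libraries were the lowest group in the mean and overlapped the others. Hspa2 differed by -0.10 (SE 0.050) for TPA against control (edgeR adjusted p = 1) and by -0.15 (SE 0.050) for TPA against zinc (adjusted p = 0.138). Of the other HSP70 genes, Hspa9, the mitochondrial HSP70 mortalin, at 297 TPM in the mean, differed by -0.15 (SE 0.053) for TPA against zinc (adjusted p = 0.169), and the divergent member Hspa12a, at 171 TPM, by 0.051 (SE 0.079). Hspa9 passed the threshold in TPA against zinc without zinc replicate 5, and in both zinc against control and TPA against zinc without the 3 farthest libraries. Over all genes, 230 were called in TPA against zinc without zinc replicate 5. Without the 3 farthest libraries 231 were called in zinc against control and 1149 in TPA against zinc, against 6 and 74 with all libraries.

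The longest open reading frames of the 2 cytosolic HSP90 genes matched at 75.7% of 2204 aligned positions. Hsp90aa1 (chr12:110691036-110696395 in mm10, minus strand) had 1422, 1389.6, 1405, 1418 and 1397 CPM in the TPA libraries, 1476, 1441, 1538, 1402 and 1549 in the zinc libraries, 1375, 1408, 1282, 1410.2 and 1388 in the glutamate-only libraries and 1396, 1439, 1418, 1469 and 1465 in the control libraries. Hsp90ab1 had 2723, 2397, 2517, 2529 and 2436 CPM in the TPA libraries, 2487, 2489, 2613, 2744 and 2663 in the zinc libraries, 2468, 2489, 2419, 2593 and 2572 in the glutamate-only libraries and 2493, 2560.4, 2583, 2570.2 and 2586 in the control libraries. For Hsp90aa1 the zinc libraries were the highest group in the mean and glutamate-only replicate 3 was the lowest library, while the Hsp90ab1 groups overlapped throughout. The difference of Hsp90aa1 between zinc and glutamate-only was 0.11 (SE 0.034), with an unadjusted edgeR p of 0.00354 and an adjusted p of 0.718. Against control, Hsp90ab1 differed by -0.022 (SE 0.037) with TPA, 0.023 (SE 0.037) with zinc and -0.029 (SE 0.037) with glutamate only. Summed over both genes, the HSP90 level was 4502 ± 115 TPM with TPA, 4671 ± 112 with zinc, 4493 ± 75.2 with glutamate only and 4575 ± 45.9 in control (SD, n = 5 each).

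The 6 co-chaperones were Stip1 (HOP, which bridges HSP70 and HSP90), St13 (HIP, which stabilises the client-bound form of HSP70), Ahsa1 (AHA1, an activator of the HSP90 ATPase), Fkbp4 (FKBP52, an HSP90-bound immunophilin), Chordc1 (an HSP90 partner) and Bag3. Their mean levels over 20 libraries were 208 TPM for Stip1, 352 TPM for St13, 239 TPM for Ahsa1, 182 TPM for Fkbp4 and 60.2 TPM for Chordc1. Against control their log2 fold changes ran from -0.19 to 0.044 with TPA, from -0.097 to 0.059 with zinc and from -0.085 to 0.0078 with glutamate only. Bag3 had 0.931, 0.843, 1.26, 1.16 and 1.04 CPM in the TPA libraries, 1.24, 0.766, 1.16, 1.56 and 0.862 in the zinc libraries, 1.22, 0.908, 1.01, 1.47 and 1.30 in the glutamate-only libraries and 0.720, 1.25, 1.47, 1.58 and 0.944 in the control libraries. Its libraries scattered widely in every group, from 24 to 59 counts each, so that its interval for zinc against control ran from 0.691 to 1.26-fold. Outside Bag3, the widest co-chaperone difference against glutamate-only was that of Chordc1 with zinc, 0.12 (SE 0.061), at an unadjusted edgeR p of 0.0703.

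Among the HSP40 genes, Dnajb1, the partner of inducible HSP70, had 59.6, 54.4, 55.9, 57.3 and 54.6 CPM in the TPA libraries, 56.0, 56.1, 52.8, 50.5 and 50.5 in the zinc libraries, 55.8, 52.9, 51.7, 55.1 and 53.4 in the glutamate-only libraries and 55.7, 54.3, 52.7, 55.5 and 57.3 in the control libraries. Dnaja1, a farnesylated HSP40 of the cytosol, had 379, 383, 389.7, 395 and 411 CPM in the TPA libraries, 405, 384, 425, 362 and 463 in the zinc libraries, 369.7, 372, 359, 367 and 407 in the glutamate-only libraries and 363, 388, 383, 423 and 417 in the control libraries. Dnajb5 (chr4:42953094-42958732 in mm10, plus strand), which in cardiac cells binds class II histone deacetylases, had 94.7, 83.9, 90.4, 88.3 and 93.0 CPM in the TPA libraries, 79.9, 75.5, 78.4, 86.8 and 86.6 in the zinc libraries, 82.2, 75.6, 79.9, 84.6 and 95.0 in the glutamate-only libraries and 82.4, 86.7, 90.3, 89.3 and 90.4 in the control libraries. The groups overlapped for all 3 genes, with Dnajb5 lower in most zinc libraries than in most TPA libraries.

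Dnajb5 differed by 0.11 (SE 0.053) between TPA and glutamate-only and by 0.15 (SE 0.053) between TPA and zinc, with edgeR adjusted p = 0.699 and 0.17. Dnajb1 differed by 0.083 (SE 0.040) between TPA and zinc (adjusted p = 0.307), and Dnaja1 by 0.12 (SE 0.055) between zinc and glutamate-only (adjusted p = 0.786). Without the 3 farthest libraries Dnajb5 passed the threshold in TPA against glutamate-only and in TPA against zinc. Over all genes, 551 and 1149 were called there in that fit, against 0 and 74 with all libraries. The fit was added after the data were seen. It leaves out glutamate-only replicate 5, which had the highest Dnajb5 of its group at 95.0 CPM. In mm10 the Dnaja1 exons overlap those of Smu1 and Gm6297 on the opposite strand and of Mir207, the Dnajb6 exons those of Gm5129, and the Tcp1 exons those of Acat3. The strand setting of the counting step is not given, so these 3 counts may hold reads of a neighbour. The other HSP40 genes, Dnaja2, Dnajb4 and Dnajb6, differed from control by at most 0.050 in size on the log2 scale, for Dnajb4 with zinc.

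The HSP110 genes encode nucleotide exchange factors for HSP70. Hsph1, the heat-inducible member, had 185, 165, 174, 177 and 175 CPM in the TPA libraries, 165, 174, 183, 204 and 195 in the zinc libraries, 164, 179, 171, 181 and 193 in the glutamate-only libraries and 169.7, 178, 182, 192 and 179 in the control libraries. The 4 groups overlapped, and its log2 fold change against control was -0.040 (SE 0.052) with TPA, 0.031 (SE 0.052) with zinc and -0.020 (SE 0.052) with glutamate only. Hspa4 (APG-2), at 269.8 TPM, and Hspa4l (APG-1), at 64.3 TPM, differed from control by at most -0.061, for Hspa4 with TPA.

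The small heat shock proteins hold unfolded clients without ATP. Hspb1 had 3, 4, 6, 4 and 1 counts in the TPA libraries, 1, 1, 1, 1 and 0 in the zinc libraries, 3, 4, 1, 2 and 0 in the glutamate-only libraries and 1, 0, 8, 0 and 4 in the control libraries. These counts are near the floor of 3 counts, which is 0.0738 to 0.105 CPM depending on the library, so no fold change is given. Hspb8 was low as well, with 24 to 68 counts a library, and its intervals reached 0.792 to 1.27-fold for TPA, 0.778 to 1.25-fold for zinc and 0.796 to 1.27-fold for glutamate-only, each against control.

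The mitochondrial chaperonin folds imported matrix proteins in a barrel of HSP60 (Hspd1) closed by a lid of HSP10 (Hspe1). Hspd1 (chr1:55077834-55087932 in mm10, minus strand) had 291, 266, 273, 271 and 269.5 CPM in the TPA libraries, 284, 291, 303, 298 and 303 in the zinc libraries, 272, 287, 285, 288 and 279.9 in the glutamate-only libraries and 264, 289, 282, 291 and 284 in the control libraries. Hspe1 (chr1:55088148-55091317 in mm10, plus strand), read from the shared promoter in the other direction, had 46.2, 42.8, 48.3, 46.7 and 45.1 CPM in the TPA libraries, 49.5, 46.9, 50.6, 45.9 and 45.3 in the zinc libraries, 44.4, 46.3, 39.5, 51.9 and 45.4 in the glutamate-only libraries and 43.8, 46.5, 44.6, 48.6 and 47.1 in the control libraries. For Hspd1, 4 of the 5 TPA libraries lay below all zinc libraries and TPA replicate 1 lay among them, whereas the Hspe1 groups overlapped throughout. The TPA group differed from the zinc group by -0.11 (SE 0.035) for Hspd1 and by -0.056 (SE 0.055) for Hspe1, with edgeR adjusted p = 0.119 and 0.657. DESeq2 gave Hspd1 an adjusted p of 0.0296 there, and the authors' deposited table gives 0.0332 for zinc over TPA, in comparisons where 4.49% and 3.78% of their genes passed. For Hspd1 the control mean lay between those of TPA and zinc, while the control libraries, at 264 to 291 CPM, overlapped both groups. Against control, Hspd1 differed by -0.040 (SE 0.035) with TPA and 0.069 (SE 0.035) with zinc.

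CCT, the cytosolic chaperonin, folds actin and tubulin in a double ring of related subunits, of which Tcp1, Cct2, Cct3, Cct4 and Cct5 are members here. Their levels were alike, from 297 TPM for Cct4 to 449.9 TPM for Cct2 in the mean. The log2 fold changes of the 5 subunits against control ran from -0.036 to 0.0042 with TPA, from -0.035 to 0.049 with zinc and from -0.051 to 0.0021 with glutamate only. Summed over the 5 subunits, the level was 1719 ± 68.5 TPM with TPA, 1746 ± 59.2 with zinc, 1731 ± 51.4 with glutamate only and 1736 ± 12.1 in control (SD, n = 5 each). The group means differed by less than the SD of each stimulated group.

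The transcription factors of the system are HSF1, which mounts the heat shock response, and HSF2, which can form mixed trimers with it. Hsf1 had 16.6, 15.2, 15.6, 13.7 and 14.6 CPM in the TPA libraries, 15.4, 14.8, 13.6, 14.6 and 12.2 in the zinc libraries, 15.8, 14.4, 16.2, 16.7 and 13.7 in the glutamate-only libraries and 14.5, 14.5, 12.6, 13.5 and 14.3 in the control libraries. Hsf2 had 51.6, 50.9, 51.5, 51.3 and 54.8 CPM in the TPA libraries, 57.7, 55.6, 55.3, 47.5 and 55.0 in the zinc libraries, 53.6, 53.3, 53.1, 49.3 and 52.1 in the glutamate-only libraries and 49.8, 51.3, 50.4, 54.1 and 55.0 in the control libraries. The groups overlapped for both. Hsf1 differed from control by 0.13 (SE 0.069) with TPA, 0.026 (SE 0.069) with zinc and 0.15 (SE 0.069) with glutamate only, where the unadjusted edgeR p was 0.0445 and the adjusted p 0.95. HSF1 is regulated mainly through its protein, and the RNA level does not measure that.

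The 3 comparisons within the stimulated cultures differ in the zinc or chelator given with glutamate. The TPA group also had 1 min in the chelator alone, and no group received TPA without glutamate. Zinc removal, other effects of the chelator and its preincubation therefore cannot be told apart. Between TPA and zinc, 7 of 34 chaperones had a positive log2 fold change and the median was -0.053. Between TPA and glutamate-only 17 were positive with a median of 0.0012, and between zinc and glutamate-only 26 were positive with a median of 0.052. The corresponding medians of all genes were -0.0011, 0.0025 and 0.00065, with 49.7%, 51.3% and 50.3% of genes positive. With 1 library left out the chaperones' median ran from -0.057 (without TPA replicate 5) to -0.031 (without TPA replicate 2) between TPA and zinc, from -0.024 (without TPA replicate 1) to 0.015 (without glutamate-only replicate 4) between TPA and glutamate-only, and from 0.034 (without glutamate-only replicate 3) to 0.070 (without glutamate-only replicate 4) between zinc and glutamate-only. These comparisons share libraries, so their values are not independent of each other.

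At an unadjusted edgeR p under 0.05, 9 of 34 chaperones differed between TPA and zinc, against 16.0% of all genes. Lower with TPA were Hspa14, Hspd1, Hspa2, Hspa9, Hsp90aa1, Dnaja2 and Hspa1b, and higher were Dnajb1 and Dnajb5. Between TPA and glutamate-only there were 2, Hspa14 and Dnajb5, against 7.15% of all genes, and between zinc and glutamate-only 2, Hsp90aa1 and Dnaja1, against 5.98%. In the test of any difference there were 5, Hspa14, Hsp90aa1, Hspd1, Hspa2 and Dnajb5, against 10.4%. No chaperone had groups wholly apart in TPA against zinc, TPA against glutamate-only or zinc against glutamate-only, where 3.13%, 1.03% and 0.701% of all genes did. The intervals lay within 1.25-fold for 30, 30 and 32 of 34 chaperones, against 66.6%, 69.9% and 71.7% of all genes, which were not matched for level.

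**Figure D4:**
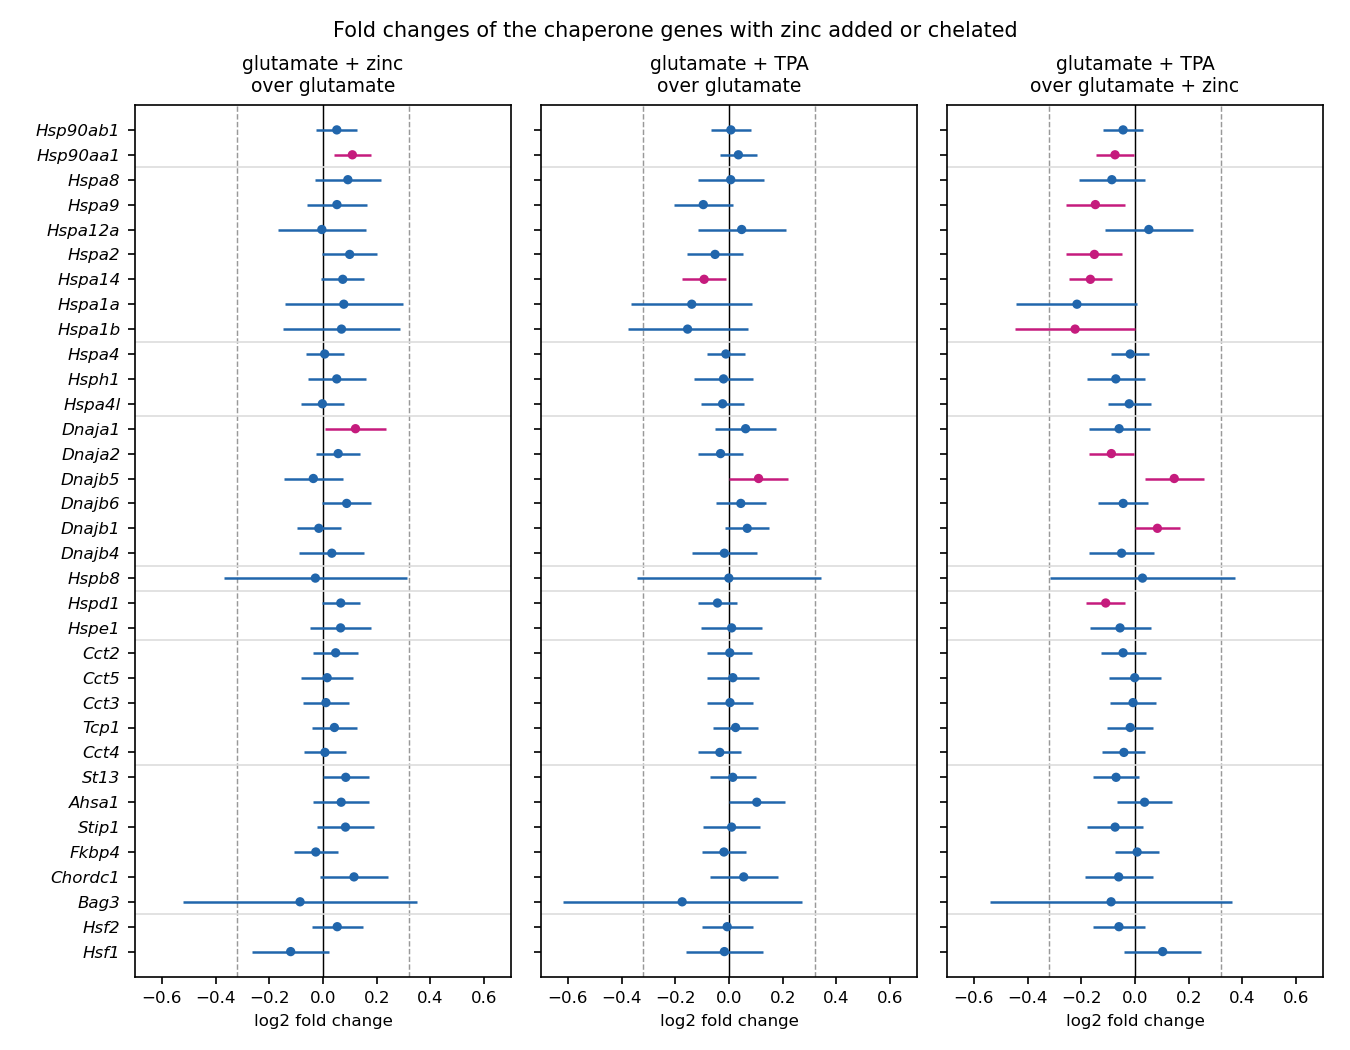
Log2 fold change with 95% confidence interval of each tested chaperone gene for zinc over glutamate-only, TPA over glutamate-only and TPA over zinc (5 libraries against 5). Dashed lines mark 1.25-fold, and magenta marks an unadjusted p under 0.05. In the right-hand panel 27 of 34 points lie left of 0, and Dnajb1 and Dnajb5 lie right of it.

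By class, the HSP70 genes had the widest median difference of the 9 classes between TPA and zinc, with a value of -0.15 and 6 of 7 negative. These 7 include the near copies Hspa1a and Hspa1b, which are not separate measurements, and Hspa14, whose count cannot be assigned to the HSP70 transcript alone. Both HSP90 genes, both mitochondrial chaperonin genes, the 3 HSP110 genes and the 5 CCT genes were negative between TPA and zinc too, with medians of -0.059, -0.083, -0.022 and -0.018. The HSP40 genes and the co-chaperones were mixed, with 4 of 6 negative in each and medians of -0.047 and -0.066. The 2 HSF genes had a median of 0.022 with 1 negative, and Hspb8 was positive at 0.028. The 5 genes with a 3-unit heat shock element match had log2 fold changes of -0.11 to -0.044 between TPA and zinc, with a median of -0.061. The 22 other tested genes with a window had -0.22 to 0.15, with a median of -0.033. Among these 22 are Hspa1a, Hspa1b, Dnajb1 and Bag3, named above as HSF1 targets. Between zinc and control the 5 genes with a match had 0.030 to 0.069, and between glutamate-only and control -0.085 to 0.0025. The 22 others had -0.11 to 0.19 and -0.081 to 0.11 there. The difference between the 5 and the 22 genes was not tested. None of these classes held a gene past the adjusted threshold in edgeR.

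Most chaperones varied less between libraries of a group than the median gene did. The median standard deviation within groups was 0.0759 in log2 CPM over the 34 genes and 0.114 over all genes tested, and 5 of the 34 exceeded 0.114. These 5 were Hspa12a at 171 TPM, and Hspa1a, Hspa1b, Hspb8 and Bag3 at 4.35 TPM or less. The genes were not matched for level, and the part of level in this difference was not tested. By library, the number of chaperones above their own 20-library mean ran from 4 to 20 of 34 in the TPA group, from 16 to 27 in the zinc group, from 8 to 24 in the glutamate-only group and from 8 to 26 in the control group. The lowest, with 4, was TPA replicate 2, which also had the smallest total count, and the highest, with 27, was zinc replicate 3. In every library between 50.1% and 53.5% of all genes tested lay above their own mean. The part of such library-wide deviations in the differences between groups was not tested.

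**Figure D5:**
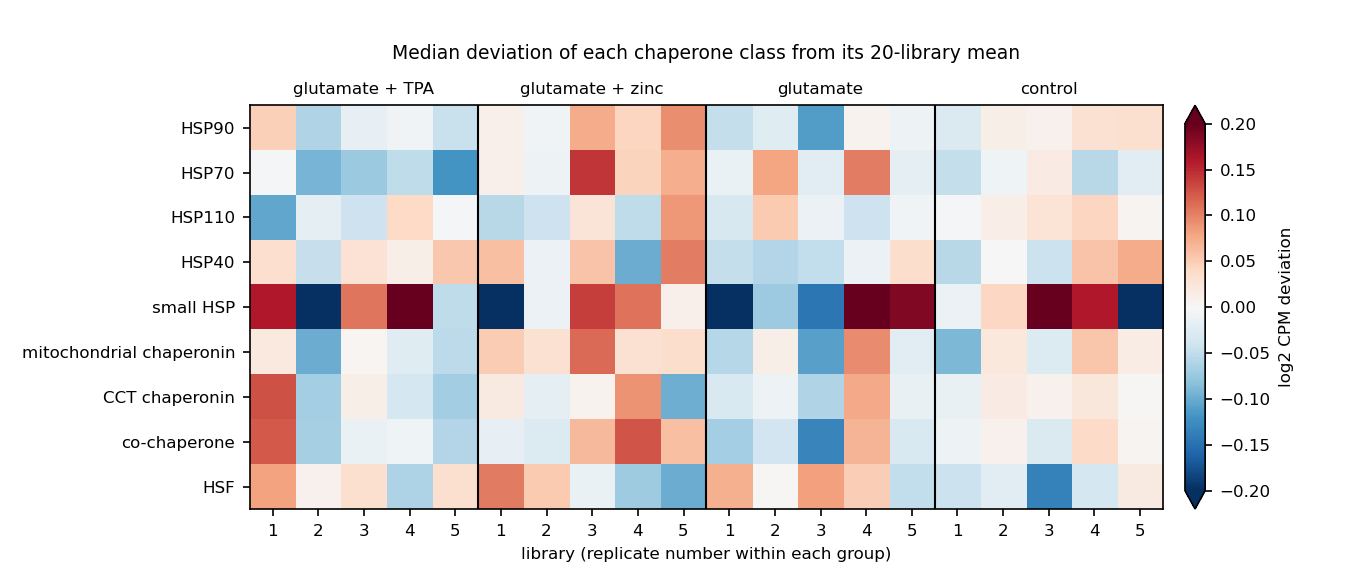
Median deviation in log2 CPM of each chaperone class from its 20-library mean, with classes down the page and libraries by group across it. Red is above and blue below the mean, and the colour scale ends at 0.2 either way. Small HSP is Hspb8 alone, whose libraries scatter most, and libraries differ within every group as well as between groups.

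Other genes of the folding network gave no call either. A list of 63 further chaperones, co-chaperones, mitochondrial proteases and HSF-linked genes outside the endoplasmic reticulum held 58 tested genes. Of these, 0 rose and 0 fell past the adjusted edgeR threshold in each of the 6 comparisons. At an unadjusted p under 0.05 there were 0 for TPA against control, 8 for zinc against control, 0 for glutamate-only against control, 7 for zinc against glutamate-only, 1 for TPA against glutamate-only and 12 for TPA against zinc. In the same order, the shares of all genes under that p were 3.09%, 11.1%, 4.98%, 5.98%, 7.15% and 16.0%. The list's median log2 fold change was -0.0088 for TPA against control, 0.053 for zinc against control, -0.013 for glutamate-only against control, 0.038 for zinc against glutamate-only, -0.0010 for TPA against glutamate-only and -0.052 for TPA against zinc (18 of 58 positive). The smallest adjusted p was 0.0779, for Dnajc8, a nuclear HSP40, with -0.15 (SE 0.040) between TPA and zinc. Within the list, 11 genes were other subunits of CCT, subunits of prefoldin, which feeds actin and tubulin to CCT, and the phosducin-like Pdcl and Pdcl3. They were all positive between zinc and glutamate-only, with a median of 0.11, and 10 of 11 were negative between TPA and zinc, with a median of -0.11. The 5 CCT subunits described above had medians of 0.016 and -0.018 there. The 10 other mitochondrial chaperone and protease genes gave a median of -0.060 between TPA and zinc with 8 negative. The 4 other tested genes listed with the small heat shock proteins, Hspb11 among them, gave -0.11 with all 4 negative. The 15 other HSP70 co-chaperone genes gave -0.054 there with 9 negative, the 12 other HSP90 co-chaperone genes -0.022 with 6 negative, and the 6 HSF-linked genes 0.018 with 3 negative.

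The chaperones of the endoplasmic reticulum, the sister system for secreted proteins, are set beside the heat shock chaperones here. For 15 such genes the median log2 fold change was -0.027 for TPA against control (2 positive), 0.24 for zinc against control (15 positive) and 0.19 for glutamate-only against control (15 positive). The 34 heat shock chaperones gave -0.019, 0.036 and -0.020 in these comparisons. Between TPA and glutamate-only the reticulum genes had a median of -0.21 with 0 of 15 positive and the heat shock chaperones one of 0.0012 with 17 of 34 positive. Between TPA and zinc the medians were -0.29 and -0.053. Between zinc and glutamate-only they were 0.075, with 15 of 15 positive, and 0.052, with 26 of 34 positive. Hsp90b1 (GRP94), the HSP90 of the reticulum, had 430.3 ± 27.7 CPM with TPA, 541 ± 63.1 with zinc, 498 ± 58.3 with glutamate only and 444 ± 25.1 in control (SD, n = 5 each). None of the 15 passed edgeR's adjusted threshold in any comparison. At an unadjusted p under 0.05 there were 0 for TPA against control, 15 for zinc against control, 5 for glutamate-only against control, 0 for zinc against glutamate-only, 8 for TPA against glutamate-only and 15 for TPA against zinc, beside the shares of all genes given for the network list. The difference between both sets of genes was not tested.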

How the data were processed

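Poly(A) RNA from 20 libraries (4 groups of 5) was prepared as stranded libraries, per the labels' protocols. The deposited counts per gene and the deposited TPM values were used, together with the authors' 6 deposited comparison tables. Per the file headers these tables hold a mean of normalised counts, treated here as a signal, log2 fold changes and their standard errors, a Wald statistic, which is a score, and p-values. Per the submitters' processing notes, the build was mm10, reads passed through HISAT2 2.1.0, Trimmomatic 0.36 and SAMtools 1.3.1 in an order not stated, and featureCounts, DESeq2 1.14.1 and R 3.3.0 were used. No source gives the strand setting of the counting.

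Genes were kept by edgeR's filterByExpr over the 4 groups, which retained 14411 genes and 99.98% of the counts. The test was edgeR 4.0.16's quasi-likelihood F test on TMM-scaled counts, with robust estimation, 1 model of 4 group means and Benjamini-Hochberg adjustment over all genes tested. CPM are counts scaled by the TMM-adjusted library total. Intervals are at 95%, and intervals and floors cover these libraries only, since reads carry no molecular identifiers. Alternatives were DESeq2 1.42.0, limma-voom (limma 3.58.1), other scalings and filters, a replicate block, each library left out, and 2 added after the data were seen, the fit without robust estimation and the fit without 3 far libraries. The script was tested on simulated data. The 35 genes and all lists were chosen with earlier results of these data known. Genes given by library were 14 fixed for their roles and the 2 with the smallest p in each comparison. Library pairs correlated at up to 0.996657, and none held identical values.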

Additional observations from a re-analysis of the deposited data

Results flagged for a closer look

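In 9 of the 68 groups of 5 libraries examined, 1 library lay far from the other 4 by Dixon's test at the 95% level, which chance gives in about 1 of 20 groups. No explanation was tested for any of these values.

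In TPA replicate 1, Hspa8, the constitutive HSP70, had 1725 CPM, against 1382 to 1445 in the other TPA libraries, and Hspd1, the mitochondrial HSP60, had 291 CPM, against 266 to 273. In TPA replicate 5, Hsf2 had 54.8 CPM, against 50.9 to 51.6 in the other 4.

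In zinc replicate 4, Hsf2 had 47.5 CPM, against 55.0 to 57.7 in the other zinc libraries. In zinc replicate 5, Hspb1 had 0 CPM, against 0.0255 to 0.0278 in the other 4, which is a difference of 1 count.

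In glutamate-only replicate 3, Hsp90aa1 had 1282 CPM, against 1375 to 1410.2 in the other glutamate-only libraries. In glutamate-only replicate 5, Dnaja1 had 407 CPM, against 359 to 372.

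In control replicate 1, the inducible Hspa1a had 5.01 CPM, against 3.63 to 3.97 in the other control libraries, and Hsp90ab1 had 2493 CPM, against 2560.4 to 2586.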

How the results depend on the processing

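The count of chaperones past the adjusted threshold was 0 in each comparison by edgeR with the scaling of DESeq2, limma-voom, no filter on low counts, each pair of groups fitted alone, Hspa1a and Hspa1b summed, and no robust estimation. With a minimum mean of 1 CPM it was 1 for TPA against zinc. DESeq2 called 1 for zinc against control, 2 for TPA against zinc and 1 for any difference. The cause of these differences was not tested, and of 34 chaperones those called were Hspa14 and, by DESeq2, Hspd1.

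Genes called over the whole table moved more. For glutamate-only against control they numbered 5 with the scaling of DESeq2, 14 by DESeq2, 5 with the minimum of 1 CPM and 6 without robust estimation, against 3. DESeq2 called 64 for zinc against control, 2 for zinc against glutamate-only, 1 for TPA against glutamate-only, 496 for TPA against zinc and 203 for any difference. For TPA against zinc, 41 were called with no filter and 6 with the pair fitted alone, against 74. By limma-voom the log2 fold change of Hspa1a for glutamate-only against control was -0.00030 and that of Bag3 0.025, of opposite sign to edgeR.

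Without the 3 farthest libraries, genes called were 100 for glutamate-only against control, 231 for zinc against control, 1 for zinc against glutamate-only, 551 for TPA against glutamate-only, 1149 for TPA against zinc and 957 for any difference. Chaperones called were 2, 1, 3 and 3 for zinc against control, TPA against glutamate-only, TPA against zinc and any difference. The median for glutamate-only against control was -0.054. Signs changed for Hspd1 (-0.0019, glutamate-only against control), Dnaja1 (-0.0022, zinc against control), Dnajb1, Bag3 and Dnajb5 (0.011, 0.17 and 0.016, zinc against glutamate-only) and Hsph1 and Bag3 (0.031 and 0.0086, TPA against glutamate-only).

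Groups share replicate numbers, and the labels name no batch. Of 30 same-numbered pairs 11 correlated above 0.1 (-0.070 to 0.497), and 9 of 20 libraries were closest to one of their own number. No chance level was computed for these values, so they do not settle whether equal numbers were paired. The main fit does not use the numbers. With the replicate block, 39, 422 and 100 genes were called for zinc against control, TPA against zinc and any difference, against 6, 74 and 24 without it. The block fit called 1 chaperone in each, Hspa14, with edgeR adjusted p = 0.0386 and 0.0289 in the pairwise comparisons. Hspa1a for glutamate-only against control was -0.0021 in that fit.

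Leaving out 1 library, genes called ran from 6 to 10 for TPA against control, 3 to 100 for zinc against control, 2 to 5 for glutamate-only against control, 0 to 3 for zinc against glutamate-only, 0 to 2 for TPA against glutamate-only, 5 to 899 for TPA against zinc and 5 to 136 for any difference. Zinc replicate 4 gave the highest count in zinc against control, TPA against zinc and any difference when left out. Chaperones called ran from 0 to 1 for zinc against control, 0 to 2 for TPA against zinc, where Hspa9 and Hspa14 passed without zinc replicate 5, and 0 to 1 for any difference. With 1 library left out, log2 fold changes whose sign or call changed, among the 17 chaperones given by library, ran as follows. For TPA against control Hspa8 -0.063 to 0.021, Dnaja1 -0.040 to 0.015, Hspe1 -0.029 to 0.014 and Hsf2 -0.023 to 0.017. For zinc against control Dnaja1 -0.0021 to 0.088, Hsph1 -0.0067 to 0.070, Bag3 -0.24 to 0.020, Hsf1 -0.0069 to 0.074 and Hspa14 0.17 to 0.21. For glutamate-only against control Hspa1a -0.051 to 0.086, Hspa8 -0.052 to 0.020, Hsph1 -0.048 to 0.0098, Bag3 -0.14 to 0.11, Hspd1 -0.018 to 0.018, Hspe1 -0.070 to 0.029 and Hsf2 -0.0095 to 0.026. For zinc against glutamate-only Hspa1b -0.00065 to 0.11, Dnajb1 -0.041 to 0.0023, Bag3 -0.23 to 0.023 and Dnajb5 -0.074 to 0.011. For TPA against glutamate-only Hspa8 -0.056 to 0.049, Hsp90ab1 -0.023 to 0.022, Hsph1 -0.049 to 0.0089, Hspe1 -0.038 to 0.060, Hsf1 -0.057 to 0.013 and Hsf2 -0.029 to 0.00033. For TPA against zinc Bag3 -0.20 to 0.057 and Hspa14 -0.19 to -0.15. Adjusted p for Hspa14 ran from 0.0399 to 0.304 and from 0.0222 to 0.187 for zinc against control and for TPA against zinc. Depth limits Hspb1, Bag3, Hspb8, Hspa1a and Hspa1b, whose counts a library were at most 8, 59, 68, 186 and 158.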
